A study of Homo sapiens with 12 samples.

Results

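The MYC, MAX and MXD network is a group of transcription factors that share dimerisation partners and compete for the same DNA sites. Its members were taken here by gene name, as the 9 genes MYC, MAX, MXI1, MXD1, MXD3, MXD4, MNT, MGA and MLX out of 56537 gene names. Every transcript model with one of these names that either matched a reference transcript or was a new splice form of one was used. This gave 148 of 286562 transcripts, which fell into 57 of 149698 groups of transcripts with a common start site. In at least 1 library, 120 of the 148 transcripts had a value above 0, and all 9 genes passed the filter of a summed value above 0.5 in at least 3 libraries.

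The cells were HCT116, a line derived from a human colorectal carcinoma, and the labels name no genetic change or drug in any group. They were kept in 21% O2 (0 h) or placed in 1% O2 for 1, 2 or 24 h, and 3 libraries of poly(A) RNA were sequenced at each of the 4 time points (12 in all). The comparisons ask how expression and isoform use respond to hypoxia, and all of them use the same 3 libraries at 0 h. The study calls its replicates biological, and the p-values measure the spread between them. Per its methods hypoxia began 24 h after plating, and the time at which the 0 h cells were collected is not given in the sources used here, so hypoxia and time in culture cannot be told apart at 24 h.

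Expression is given as FPKM, which scales sequenced fragments to transcript length and library size. Read counts were not analysed here, so the depth behind each value is unknown and the spread of 3 libraries is the measure of precision. Replicates correlated at r = 0.965 to 0.988 across genes. Transcripts shorter than 300 bases accounted for 57.0% to 87.7% of each library's summed FPKM, and scaling factors computed over the genes above 0 in all libraries lay between 0.950 and 1.03. All 10 genes of a hypoxia list (among them CA9, VEGFA and BNIP3) were called higher at 24 h. Of 9 epithelial markers 6 passed the filter, while VIL1, CDX1 and LGALS4 stayed under 1 FPKM in every library. At 24 h EPCAM, KRT8 and KRT18 did not pass the test (adjusted p = 0.164, 0.387 and 0.323), CDX2 (log2 change -0.39, adjusted p = 0.0302) and KRT19 (0.99, adjusted p = 1.66e-05) passed an adjusted p under 0.05 only, and CDH1 was called (7.42 ± 0.731 to 26.3 ± 1.72 FPKM, log2 change 1.76). The 4 leukocyte and 3 endothelial markers stayed under 1 FPKM in every library, as did 4 of 5 fibroblast markers. The remaining fibroblast marker, COL1A1, went from 1.92 ± 0.206 FPKM at 0 h to 6.87 ± 1.67 at 24 h (SD, n = 3), and the part of other cells in the results below was not tested.

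MYC, a basic helix-loop-helix leucine zipper protein, activates genes for growth, ribosome production and metabolism when it is paired with MAX. The MXD proteins (MXD1, MXI1, MXD3 and MXD4) and MNT pair with MAX in the same way, bind the same E-box sites and recruit the SIN3 and histone deacetylase corepressor, so they oppose MYC. MGA is a very large MAX partner that belongs to a Polycomb complex, MLX pairs with the sugar-responsive factors MLXIP and MLXIPL and with some of the MXD proteins, and MXI1 is a known target of the hypoxia-inducible factors (HIFs).

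The starts of MXI1 carried the largest change in the network, so the bases upstream of its 3 main annotated starts are shown first. They are the 250 bases before each start, 5′ to 3′ on the plus strand of GRCh37 (hg19), the build of the deposited coordinates, and the transcript starts come from GENCODE release 44. Capitals mark ACGTG or GCGTG on either strand, the core of the element that HIFs bind. ACGTG overlaps the E-box CACGTG where a C precedes it.

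MXI1 ENST00000332674, chr10:111967113-111967362: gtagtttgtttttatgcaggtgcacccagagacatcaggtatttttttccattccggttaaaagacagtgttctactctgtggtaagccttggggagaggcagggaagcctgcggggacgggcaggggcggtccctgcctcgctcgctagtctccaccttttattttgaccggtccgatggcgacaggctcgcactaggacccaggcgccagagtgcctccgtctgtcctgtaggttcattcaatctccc

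MXI1 ENST00000361248, chr10:111969739-111969988: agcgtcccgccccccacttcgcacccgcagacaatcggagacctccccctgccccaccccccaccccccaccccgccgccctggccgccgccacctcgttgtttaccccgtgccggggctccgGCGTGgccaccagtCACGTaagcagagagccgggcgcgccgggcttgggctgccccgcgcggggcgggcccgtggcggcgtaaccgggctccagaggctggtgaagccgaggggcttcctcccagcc

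MXI1 ENST00000239007, chr10:111985501-111985750: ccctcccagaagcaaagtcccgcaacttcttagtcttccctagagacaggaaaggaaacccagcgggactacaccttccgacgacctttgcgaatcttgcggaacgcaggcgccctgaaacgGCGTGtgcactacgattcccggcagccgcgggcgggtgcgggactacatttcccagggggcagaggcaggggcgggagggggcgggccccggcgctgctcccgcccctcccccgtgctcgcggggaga

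The window before ENST00000332674 held neither core, but the assembled MXI1 locus begins inside that window, at 111967283, so assembled and annotated starts can differ. The window before ENST00000361248 held 1 GCGTG and 1 ACGTG (written as its complement CACGT), which begin 127 and 113 bases before the start. The window before ENST00000239007 held 1 GCGTG, 128 bases before the start. None of the 3 windows held CACGTG. Windows of the same length before 78581 coding transcript starts held ACGTG in 19.3%, GCGTG in 36.6%, either in 47.5% and CACGTG in 6.86%. Among the windows before the transcript that led the most abundant start-site group of each other member at 24 h, those of MAX, MLX, MNT and MXD4 held CACGTG, while those of MGA, MXD1, MXD3 and MYC did not. These matches describe letters in a window and say nothing of binding.

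At 24 h all 4 MXD genes and MNT were called higher than at 0 h, whereas MYC was not. A gene was called at an absolute log2 fold change above 1 with an adjusted p under 0.01 (limma on log2(FPKM + 0.5), two-sided, Benjamini-Hochberg adjustment over 16680 genes), a scale that understates the change of genes with low FPKM. By this rule 5 of the 9 members were called at 24 h, all of them higher, against a background of 18.3% of all genes called and 8.76% called higher. With an adjusted p under 0.05 as the only condition, 7 members passed, 5 higher and 2 lower, against 55.3% of all genes. At 1 h and 2 h no member was called, where 0.006% and 0.018% of all genes were (769 and 2547 genes had an unadjusted p under 0.05). The median log2 change at 24 h was 1.29 over the 9 members and -0.05 over all genes tested. In bulk RNA, fewer cells that express a gene and less RNA per cell cannot be told apart.

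**Figure D1:**
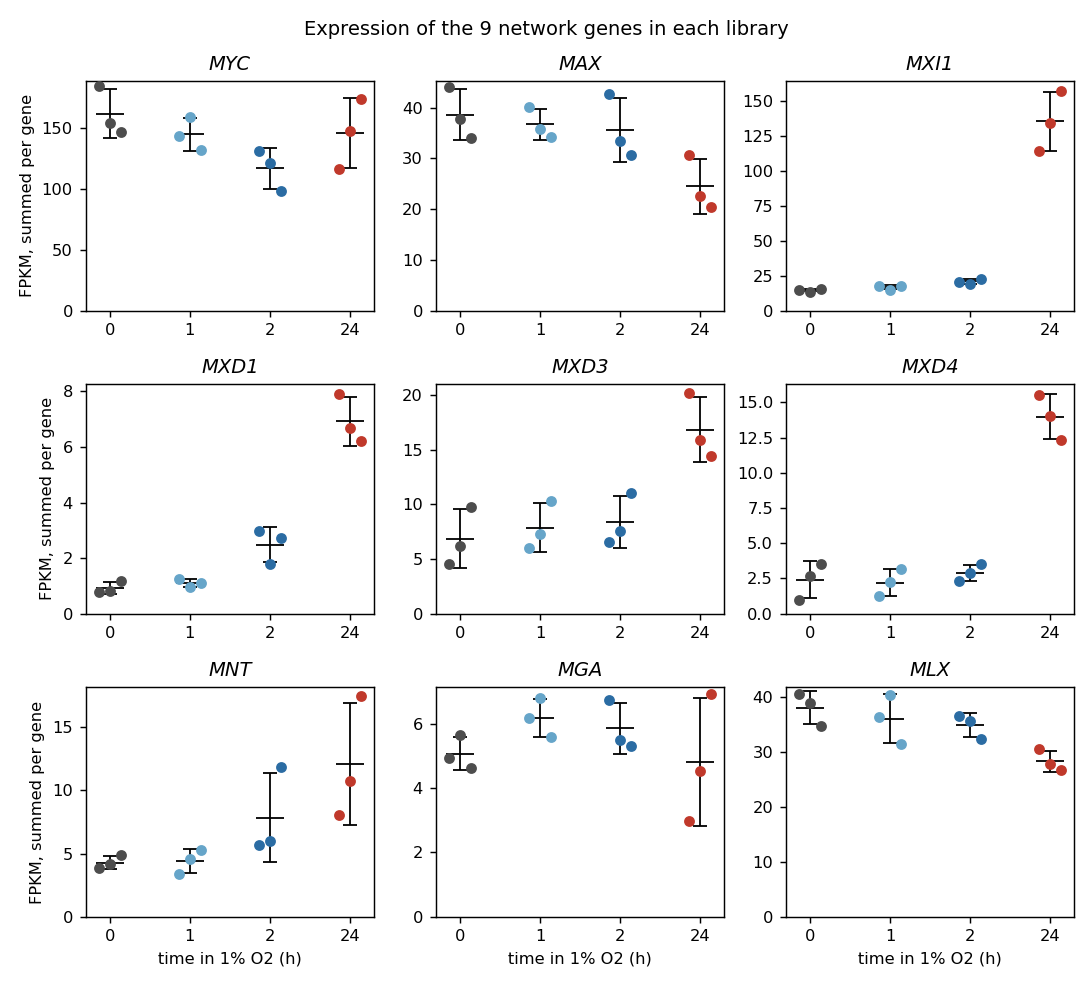
FPKM of each of the 9 genes (vertical axes, from 0) in every library at 0, 1, 2 and 24 h in 1% O2 (horizontal axes); points are libraries, and the long dashes and bars are the mean ± SD of 3. At 24 h the 3 libraries of MXI1 lie between 114 and 157 FPKM, far above all earlier ones, while those of MYC (116 to 174) overlap the 0 h libraries.

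MYC, the activator of the network, was its most abundant gene at every time point by mean FPKM, although its range overlapped that of MXI1 at 24 h. Its FPKM was 184, 154 and 147 in the libraries at 0 h, 143, 159 and 132 at 1 h, 131, 122 and 98.45 at 2 h, and 116, 147 and 174 at 24 h. The 3 libraries at 2 h lay below all those at 0 h, but the change did not pass the test (log2 change -0.47 ± 0.15 (SE), adjusted p = 0.205). At 24 h the libraries overlapped those at 0 h (log2 change -0.16 ± 0.15 (SE), adjusted p = 0.399), with means of 146 ± 28.6 and 162 ± 19.8 FPKM (SD, n = 3). In TPM over all transcripts, a rescaling that lowers the median log2 change of all genes from -0.02 to -0.88 at 2 h and from -0.05 to -0.67 at 24 h, that of MYC was -1.55 at 2 h (adjusted p = 0.015) and -1.03 at 24 h (adjusted p = 0.0614).

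MAX, the obligate partner, was lower at 24 h by the adjusted p alone. It had 43.99, 37.8 and 34.1 FPKM at 0 h, 40.1, 35.7 and 34.3 at 1 h, 42.7, 33.5 and 30.7 at 2 h, and 30.6, 22.5 and 20.4 at 24 h. Every library at 24 h was below every library at 0 h, and the difference missed the fold threshold (log2 change -0.66 ± 0.16 (SE), adjusted p = 0.00443). Mean MAX went from 38.6 ± 5.00 to 24.5 ± 5.40 FPKM (SD, n = 3), that is 1.58-fold lower. In TPM over all transcripts MAX was called lower (log2 change -1.47, adjusted p = 0.00427).

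The change of MAX was not even across its coding transcripts. ENST00000358664, which codes for 160 residues, went from 10.4 ± 1.84 FPKM at 0 h to 2.40 ± 0.859 at 24 h, and its libraries were already lower at 1 h (4.93 to 7.89) than at 0 h (8.75 to 12.4). ENST00000358402, of 151 codons that all lie within the coding bases of the first, went from 14.7 ± 1.35 to 8.98 ± 1.47 FPKM. In the other direction, ENST00000284165, of 134 codons and with 107 coding bases of its own, went from 0.611 ± 0.348 to 2.62 ± 1.16 FPKM, and the ranges at 0 h and 24 h did not overlap for any of these 3 transcripts. ENST00000556443 was listed at 0 in all 9 libraries up to 2 h and at 2.24, 0.891 and 1.93 FPKM at 24 h. ENST00000556979, of 103 codons and with the annotated ends of ENST00000358664, had 4.6 ± 1.72 FPKM at 0 h. It had 7.1 ± 0.784 at 1 h and 1.96 ± 0.578 at 24 h, while MAX as a whole changed little at 1 h (log2 change -0.07). Single transcripts were not tested here.

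Among the repressors, MXI1 changed most. MXI1 had 15.0, 13.6 and 15.1 FPKM at 0 h, 17.7, 15.0 and 17.5 at 1 h, 20.6, 19.3 and 22.8 at 2 h, and 114, 135 and 157 at 24 h. The libraries at 2 h were all above those at 0 h (log2 change 0.50 ± 0.12 (SE), adjusted p = 0.113, and 0.0440 with the replicate number as a block in limma, but -0.54 with an adjusted p of 0.239 in TPM over all transcripts), and those at 24 h were far above all others. At 24 h mean MXI1 was 135 ± 21.4 FPKM against 14.6 ± 0.828 (SD, n = 3), or 9.27-fold higher (log2 change 3.16 ± 0.12 (SE), adjusted p = 1.3e-08). Only 41 of 16680 genes had a larger log2 change. Over the settings run, that of MXI1 ranged from 2.26 to 3.27. In the order of levels MXI1 came after MYC, MAX and MLX at 0, 1 and 2 h, without overlap with its neighbours, and after MYC alone at 24 h, where its range overlapped that of MYC.

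MXD1, the founding MXD gene and a marker of differentiating cells in many tissues, had the lowest mean FPKM of the network before hypoxia, with a range that overlapped that of MXD4. It had 0.770, 0.804 and 1.17 FPKM at 0 h, 1.25, 0.970 and 1.11 at 1 h, 2.96, 1.77 and 2.72 at 2 h, and 7.90, 6.68 and 6.21 at 24 h. The groups at 0 h, 2 h and 24 h did not overlap one another. At 24 h it was 7.57-fold higher by mean FPKM (log2 change 2.40 ± 0.19 (SE), adjusted p = 1.3e-06). At 2 h its log2 change was 1.07 ± 0.19 (SE) with an adjusted p of 0.0388, so MXD1 was the 1 member to pass an adjusted p under 0.05 at that time, against 0.312% of all genes. With the replicate number as a block, MXD1 and MXI1 passed that condition at 2 h, against 1.65% of all genes. Leaving out 1 library of that contrast at a time gave adjusted p from 0.0196 to 0.202, and only the fit without replicate 2 at 2 h stayed under 0.05. The log2 change at 2 h was 0.18 in TPM over all transcripts (adjusted p = 0.561) and 0.25 for the assembled locus (0.267), and the adjusted p was also above 0.05 in TPM over transcripts of at least 300 bases (0.0564), without the filter (0.116), with exact matches only (0.0793) and with only the 6 libraries compared (0.107). The assembled locus of MXD1 also holds GMCL1 and SNRNP27, and the sum over that whole locus was not called at 24 h (log2 change 0.21, adjusted p = 0.0900).

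MXD4 had 0.988, 2.71 and 3.56 FPKM at 0 h, 1.23, 2.24 and 3.14 at 1 h, 2.33, 2.88 and 3.50 at 2 h, and 15.6, 14.02 and 12.4 at 24 h. The libraries up to 2 h overlapped, and those at 24 h stood clear of them. It was 5.78-fold higher at 24 h by mean FPKM (log2 change 2.42 ± 0.34 (SE), adjusted p = 8.3e-05). Over the settings run, this log2 change ranged from 1.46 to 2.72. MXD3, an MXD gene linked to dividing cells, had 4.57, 6.18 and 9.79 FPKM at 0 h and 20.2, 15.9 and 14.4 at 24 h, with the libraries at 1 h and 2 h between 5.98 and 11.0. It was 2.46-fold higher at 24 h (log2 change 1.29 ± 0.27 (SE), adjusted p = 0.00156), with no overlap. Its assembled locus also holds RAB24, and that of MXD4 the microRNA gene MIR4800. When values were rescaled to TPM over all transcripts, MXD3 was no longer called (log2 change 0.44, adjusted p = 0.371).

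MNT, the MAX partner with the broadest expression, had 3.83, 4.16 and 4.89 FPKM at 0 h, 3.40, 4.61 and 5.3 at 1 h, 5.64, 5.97 and 11.9 at 2 h, and 8.07, 10.8 and 17.5 at 24 h. Replicate 3 at 2 h stood apart from the other 2 libraries and inside the range at 24 h. At 24 h MNT was 2.82-fold higher than at 0 h (log2 change 1.33 ± 0.30 (SE), adjusted p = 0.00229), without overlap. The call was lost in TPM over all transcripts (log2 change 0.47, adjusted p = 0.305) and without replicate 1 at 0 h (1.26, adjusted p = 0.0105). At 2 h its log2 change was 0.73 ± 0.30 (SE) with an adjusted p of 0.278, and 0.40 without replicate 3 at 2 h.

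MGA and MLX, which link the network to Polycomb repression and to sugar sensing, did not rise. MGA had 4.93, 5.64 and 4.63 FPKM at 0 h and 2.99, 4.53 and 6.92 at 24 h, so the groups overlapped (log2 change -0.13 ± 0.22 (SE), adjusted p = 0.639). MLX had 40.5, 38.9 and 34.7 FPKM at 0 h and 30.5, 27.7 and 26.6 at 24 h, with no overlap and a change below the fold threshold (log2 change -0.42 ± 0.11 (SE), adjusted p = 0.0059). In TPM over all transcripts the log2 changes at 24 h were -0.82 for MGA (adjusted p = 0.0594) and -1.25 for MLX (0.0153). At 1 h and 2 h neither gene passed the test, with log2 changes from -0.13 to 0.26.

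**Figure D2:**
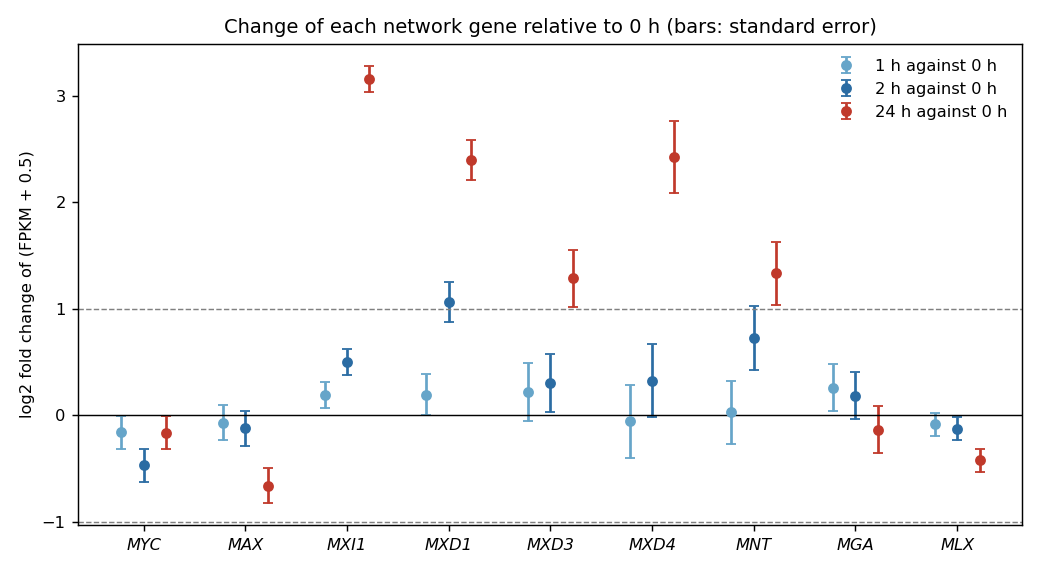
Log2 fold change of FPKM + 0.5 (vertical axis) of each network gene (horizontal axis) at 1, 2 and 24 h against 0 h; points are estimates from limma, bars their standard error, and the dashed lines a log2 change of 1 and -1. At 24 h MXI1, MXD1, MXD3, MXD4 and MNT lie above 1 and the other 4 genes between -0.66 and -0.13.

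Relative to the summed competitors, MYC was lower in every library at 24 h than in any at 0 h. The summed FPKM of MXD1, MXI1, MXD3, MXD4 and MNT was 25.2, 27.5 and 34.5 at 0 h, 29.5, 30.2 and 37.4 at 1 h, 38.1, 37.4 and 51.9 at 2 h, and 166, 182 and 208 at 24 h. MYC exceeded this sum in every library up to 2 h and in none at 24 h. The ratio of MYC to the sum at 0 h was 5.73 ± 1.54 (SD, n = 3), and it was 4.55 ± 0.903 after 1 h, 2.86 ± 0.842 after 2 h and 0.783 ± 0.0716 after 24 h. Its libraries at 2 h (1.90 to 3.44) and at 24 h (0.702 to 0.837) did not overlap those at 0 h (4.25 to 7.32). The log2 ratio at 24 h differed from that at 0 h by -2.84 (exact two-sided permutation p = 0.1, the smallest p that 3 libraries against 3 can give). As ratios are formed within a library, scaling between libraries does not alter them. Since MXI1 made up 51.0% ± 8.04 of the sum at 0 h and 72.8% ± 3.55 at 24 h, the ratio was also formed without it, and its log2 difference was then -1.99.

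The partners of MAX were also more abundant relative to MAX at 24 h. The summed FPKM of MYC, the 4 MXD genes, MNT and MGA was 5.10 ± 0.315 times that of MAX at 0 h, and 5.02 ± 0.516, 4.70 ± 0.505 and 14.4 ± 4.87 times at 1, 2 and 24 h. The single libraries at 24 h gave 9.32, 14.8 and 19.0, all above the 0 h range of 4.87 to 5.46 (exact permutation p = 0.1, the smallest possible). MXI1 over MAX went from 0.382 ± 0.0541 to 5.81 ± 1.99, with no overlap, whereas MYC over MAX (4.19 ± 0.114 and 6.29 ± 2.37) overlapped between 0 h and 24 h (exact permutation p = 0.4). These are ratios of RNA per length, and protein was not measured in these files.

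**Figure D3:**
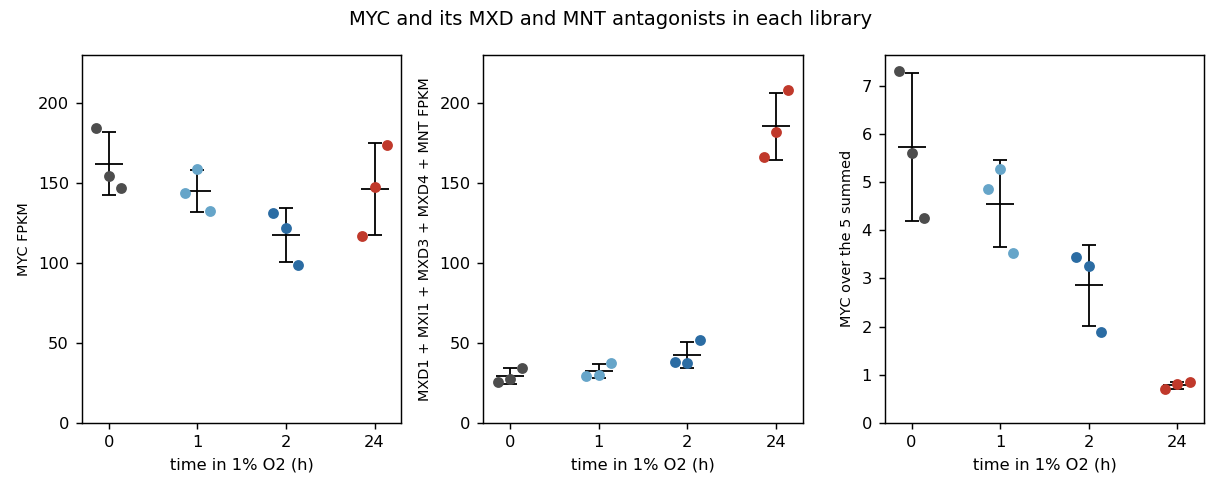
FPKM of MYC (left), summed FPKM of MXD1, MXI1, MXD3, MXD4 and MNT (middle) and the ratio of the first to the second (right) in each library at 0, 1, 2 and 24 h in 1% O2; points are libraries, and dashes with bars are the mean ± SD of 3. The sum lies between 166 and 208 FPKM at 24 h and the ratio between 0.702 and 0.837 there.

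MXI1 changed its start sites as well as its level. Its annotated start sites lie on chromosome 10, plus strand, in hg19: ENST00000332674 starts at 111967363, ENST00000453116 79 bases further on, ENST00000361248 2626 bases further on and ENST00000239007, the downstream start, 18388 bases further on. The assembled locus begins at 111967283, so the assembled groups need not start at these bases. The group led by ENST00000332674 had 1.29, 1.96 and 2.14 FPKM at 0 h, 3.26, 2.81 and 4.30 at 2 h, and 27.8, 33.4 and 48.6 at 24 h. ENST00000361248 had 5.75, 1.02 and 1.11 FPKM at 0 h and 30.0, 44.5 and 69.9 at 24 h. ENST00000453116 was listed at 0 in all 9 libraries up to 2 h and at 17.6, 18.9 and 10.0 FPKM at 24 h. For each of these 3 upstream starts the libraries at 24 h lay above all earlier ones. The downstream group had 6.69, 9.25 and 11.05 FPKM at 0 h, 12.02, 11.08 and 12.4 at 1 h, 14.5, 14.4 and 13.3 at 2 h, and 24.0, 36.0 and 26.6 at 24 h. Its libraries at 1 h and 2 h were already above all those at 0 h. All 4 groups were called higher at 24 h, with log2 changes of 3.996 ± 0.26 (SE) for ENST00000332674, 4.21 ± 0.67 for ENST00000361248 and 1.64 ± 0.18 for ENST00000239007 (adjusted p = 2.5e-06, 0.000633 and 5.9e-05), and no fold is given for ENST00000453116. Without replicate 1 at 0 h the log2 change of ENST00000361248 was 4.87. The downstream group was not called in TPM over all transcripts (log2 change 0.76, adjusted p = 0.147).

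As a share of MXI1, the 3 upstream groups together went from 30.1% ± 14.5 at 0 h (46.8%, 21.8% and 21.5%) to 73.2% ± 7.99 at 24 h (65.99%, 72.0% and 81.8%). The downstream start went from 61.8% ± 15.2 to 21.6% ± 4.93, and neither share overlapped between 0 h and 24 h (exact permutation p = 0.1, the smallest possible). At 1 h and 2 h the upstream share was 23.0% ± 2.94 and 28.4% ± 10.9, within the range at 0 h apart from 2 libraries under it at 1 h and 2 h, so the switch was seen at 24 h. In FPKM the upstream groups went from 4.42 ± 2.27 to 100.3 ± 26.7, or 22.7-fold, and the downstream start from 8.997 ± 2.19 to 28.9 ± 6.31, or 3.21-fold. The upstream ENST00000332674 has 295 codons, and 274 of its coding bases are absent from the downstream form of 228 codons, while ENST00000361248 (182 codons) holds coding bases that all lie within the downstream form. Use of a start was tested as the log2 ratio of a group to the rest of its gene (limma, adjusted p under 0.05). By this test ENST00000332674 gained (1.07 ± 0.26 (SE), adjusted p = 0.0267) and the downstream start lost (-2.59 ± 0.39 (SE), adjusted p = 0.00275). ENST00000453116 also gained, but it passed the filter only through its 24 h libraries, and its adjusted p reached 0.051 in another setting. ENST00000361248, the largest upstream group at 24 h by mean FPKM, did not pass (1.33 ± 0.78 (SE), adjusted p = 0.318), and its share of MXI1 overlapped between 0 h (38.2%, 7.50% and 7.35%) and 24 h (26.2%, 33.1% and 44.5%). The call of ENST00000332674 was lost without replicate 1 at 0 h (adjusted p = 0.0956), replicate 2 at 24 h (0.0554) or replicate 3 at 24 h (0.0784). With limma's diffSplice, which sets each start against all others of its gene, the adjusted p of ENST00000332674 and the downstream start were 0.129 and 0.159.

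**Figure D4:**
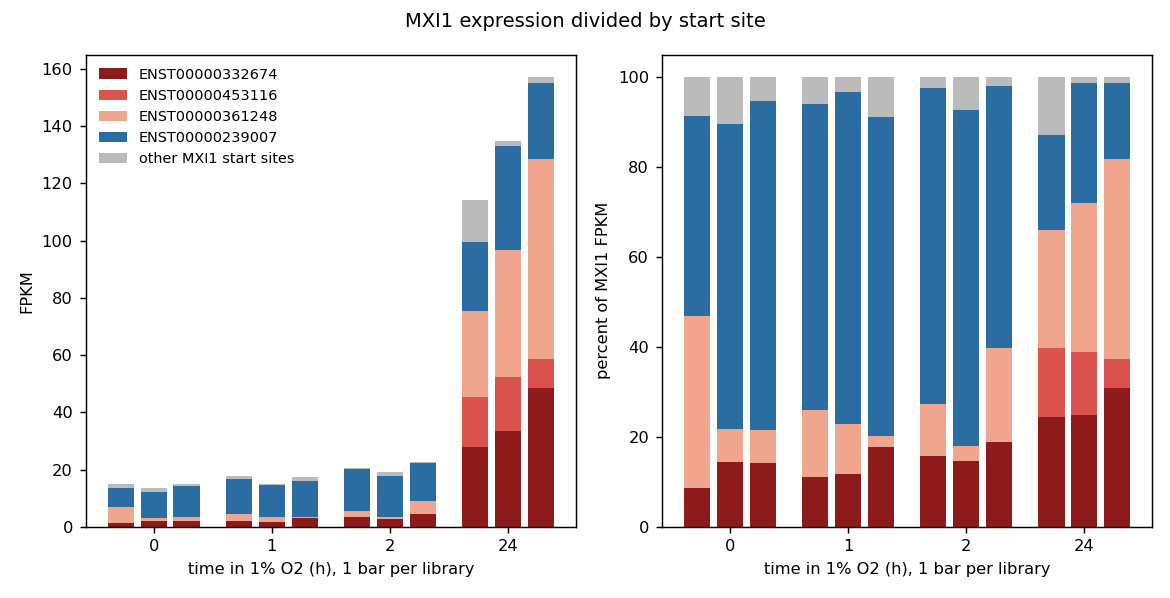
FPKM (left) and percent of MXI1 FPKM (right) in each library, 1 bar per library, grouped by hours in 1% O2; colours are start-site groups named by their leading transcript, with the 3 upstream starts in reds, the downstream start in blue and all others in grey. At 24 h the reds make up 65.99% to 81.8% of each bar, against 21.5% to 46.8% at 0 h.

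Across the network 28 start-site groups passed the filter and 8 were called at 24 h, all higher, against 6.72% of all groups called higher. They were the 4 of MXI1 and 1 each of MXD1, MXD3, MXD4 and MYC. The MXI1 group of ENST00000453116 passed the filter only through its libraries at 24 h, so its call gives no separate support. In TPM over all transcripts 7 member groups were called, 5 higher and 2 lower, beside 311 higher and 3539 lower of all 38233 groups. With exact matches to the reference only 9 were, 8 higher and 1 lower, beside 1986 higher and 2475 lower of all 33037 groups. Those lower were the MAX group led by ENST00000553928 in both settings, and in TPM also the new splice form of MYC described next. For MXD4 the called group was led by ENST00000337190, the coding form (1.72 ± 0.906 to 12.6 ± 1.78 FPKM), and its log2 change was 2.65 ± 0.33 (SE, adjusted p = 0.000131). For MXD1 it was ENST00000264444 (0.721 ± 0.117 to 5.92 ± 0.117 FPKM, log2 change 2.40 ± 0.23 (SE), adjusted p = 2.2e-05). The MXD3 group, led by the retained-intron form ENST00000503782, stayed close to the threshold, and leaving out any of 4 single libraries ended its call. No single group of MNT was called, although ENST00000174618, its coding form, had 1.47, 1.92 and 2.29 FPKM at 0 h and 3.83, 4.77 and 8.23 at 24 h (log2 change 1.30 ± 0.34 (SE), adjusted p = 0.0111).

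The MYC group called higher was a minor one. ENST00000259523 had 1.95, 1.81 and 1.66 FPKM at 0 h, 1.20, 1.30 and 1.24 at 2 h, and 4.51, 4.51 and 6.19 at 24 h, with no overlap (log2 change 1.26 ± 0.18 (SE), adjusted p = 0.000326). It made up 1.12% ± 0.0565 of MYC at 0 h and 3.49% ± 0.409 at 24 h, and it also gained in use (1.46 ± 0.22 (SE), adjusted p = 0.0029). In TPM over all transcripts its level was not called (log2 change 0.43, adjusted p = 0.265). Most MYC came from a pair of coding groups. That of ENST00000524013 held 44.2% ± 4.13 of MYC at 0 h and 38.7% ± 3.87 at 24 h, with overlap, and that of ENST00000377970 held 41.5% ± 3.58 and 54.1% ± 6.07, without. A new splice form of ENST00000377970 went from 40.0, 16.2 and 10.2 FPKM to 0.0740, 7.61 and 7.603.

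In use of start sites 8 of the 26 member groups that could be tested passed, 4 gaining and 4 losing, against 9.91% of all groups tested. Of the 8, 4 belonged to MXI1, 1 to MYC, 1 to MXD3 and 2 to MXD4, and the 2 of MXD4 mirror each other because only 2 of its groups passed the filter. The MXI1 group of ENST00000453116 and the retained-intron group of MXD4 were above 0.5 FPKM only at 24 h. The calls of ENST00000453116 and of MXD4 therefore rest on groups that the 24 h values let in. Without replicate 1 at 0 h the count was 4 in place of 8. For MXD4 the coding start gained relative to the retained-intron form ENST00000513372 (log2 ratio 1.66 ± 0.36 (SE), adjusted p = 0.0158, and 0.0518 without replicate 1 at 0 h). The coding start held 71.7% ± 1.59, 85.95% ± 5.07, 70.9% ± 7.24 and 90.1% ± 3.805 of MXD4 at 0, 1, 2 and 24 h. The retained-intron form had 0.271 ± 0.0245 FPKM at 0 h and 1.04 ± 0.171 at 24 h, without overlap, and its share of MXD4 overlapped between these times (15.0% ± 10.6 and 7.58% ± 1.89). The fourth of the MXI1 groups, led by ENST00000393134, was low throughout, at 0.433 ± 0.611 FPKM at 0 h and 0.514 ± 0.446 at 24 h, and so was the MXD3 group that lost share, led by ENST00000503473 (0.846 ± 0.479 and 0.450 ± 0.389 FPKM). MLX and MXD1 had a single group past the filter, so their use of starts could not be compared.

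The share of FPKM in transcripts not typed as protein coding, called noncoding here, did not move one way across the network. These types are retained intron, nonsense-mediated decay, transcripts of coding genes without a defined coding sequence, and others. For 4 of the 9 members the libraries at 0 h and 24 h did not overlap in this share, against 21.6% of the genes compared. The count was 2 of the 9 when transcripts had to pass 0.5 FPKM in 3 libraries, and the share over all genes with that filter is not given here. The noncoding share was lower at 24 h for MYC (2.27% ± 0.525 to 0.366% ± 0.289), MXI1 (3.46% ± 1.57 to 1.86% ± 0.164) and MXD4 (28.3% ± 1.59 to 9.92% ± 3.805). It was higher for MLX (8.14% ± 0.675 to 11.2% ± 2.27). The separation was thin for MXI1, with 2.037% in its lowest library at 0 h and 2.017% in its highest at 24 h. MNT held the largest noncoding share at both times, 56.2% ± 4.75 and 53.7% ± 1.76, with overlap. Groups led by transcripts without a defined coding sequence, ENST00000575374 and ENST00000571232, held 18.4% and 15.4% of MNT at 0 h. The leading MGA transcript, ENST00000545763, was of that type too. For the noncoding shares exact permutation tests cannot go below p = 0.1, which is the value each of the 4 gave. Types come from a later annotation than the one the authors used, and 14.4% of MGA FPKM had no type.

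Of the wider MYC and MLX families, 3 genes passed the filter and 1 was called at 24 h, beside 18.3% of all genes called and 8.76% called higher. MYCN was listed at 0 in all 12 libraries and MYCL stayed low (2.01 ± 0.283 to 2.69 ± 0.615 FPKM, log2 change 0.33, adjusted p = 0.128). MLXIPL, which codes for the carbohydrate-responsive partner of MLX, went from 5.24 ± 0.469 to 11.3 ± 2.29 FPKM and was called (log2 change 1.02 ± 0.23 (SE), adjusted p = 0.00285), just over the fold threshold. MLXIP, the other partner, was not (13.6 ± 0.424 to 11.8 ± 3.18 FPKM, adjusted p = 0.21). Of the MLX target genes TXNIP did not pass the filter and ARRDC4 had a log2 change of 0.03 at 24 h.

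Genes that work with the network were counted on lists, beside the 18.3% of all genes called at 24 h (8.76% higher and 9.51% lower). Of 12 SIN3 corepressor genes, the machinery of the MXD proteins, 1 was called at 24 h, BRMS1, which was lower (51.5 ± 8.84 to 18.8 ± 5.38 FPKM, log2 change -1.45), and the median log2 change was -0.06. Of 12 MYC coactivator genes 2 were called, both lower, the helicase gene RUVBL1 (144 ± 21.5 to 60.5 ± 8.90 FPKM) and WDR5, which anchors MYC to chromatin (44.3 ± 2.06 to 19.5 ± 1.13 FPKM), and the median was -0.27. Of 8 MYC turnover genes 1 was called, SKP2, a ubiquitin ligase subunit (26.6 ± 2.72 to 10.2 ± 0.649 FPKM), with a median of -0.26. Of 8 genes of the MGA Polycomb complex 3 were called lower and 1 higher, with a median of -0.76. L3MBTL2 went from 18.6 ± 1.63 to 4.72 ± 0.519 FPKM, PCGF6 from 21.2 ± 1.18 to 7.32 ± 0.932, TFDP1 from 157 ± 11.6 to 78.8 ± 11.3 and RYBP from 5.79 ± 0.322 to 12.9 ± 1.89. MGA itself, whose protein carries these subunits, overlapped between the times as given above. In TPM over all transcripts the medians of these lists, in the same order, were -0.93, -1.09, -1.06 and -1.56, against -0.67 over all genes.

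Known MYC target genes were counted in the same way, beside the same 9.51% of all genes called lower and 8.76% called higher. Of 20 genes that MYC is known to activate 14 were called lower and 1 higher at 24 h, and the median log2 change was -1.14, against -0.05 over all genes. ODC1, which makes polyamines, went from 442 ± 52.6 to 75.6 ± 13.3 FPKM, CDC25A, a cell cycle phosphatase, from 20.1 ± 1.63 to 3.88 ± 0.936, MRTO4, a ribosome assembly factor, from 97.6 ± 13.9 to 21.2 ± 0.364, and SRM, of the polyamine pathway, from 114 ± 14.1 to 29.8 ± 4.36. The gene called higher was LDHA, which is also a known HIF target (857 ± 46.4 to 2831 ± 388 FPKM). Of 6 genes that MYC is known to repress 5 were called higher, with a median of 1.81. They were NDRG1 (24.1 ± 6.18 to 983.9 ± 153 FPKM), which is on the hypoxia list too, CDKN1C (2.77 ± 0.430 to 22.6 ± 2.53), CDKN2B (1.01 ± 0.108 to 6.25 ± 2.40), CDKN1A (61.9 ± 6.90 to 177 ± 17.3) and GADD45A (22.1 ± 0.975 to 49.9 ± 4.88). Neither list had a called gene at 1 h or 2 h, where only 0.006% and 0.018% of all genes were called. The medians at these times were -0.04 and -0.08 for the first list and 0.16 and 0.49 for the second. In TPM over all transcripts, the medians of the 2 lists at 24 h were -1.99 and 0.90, against -0.67 over all genes. With that scaling the early medians of both lists were negative. They were -0.67 and -1.17 for the first list at 1 h and 2 h and -0.42 and -0.52 for the second, against -0.53 and -0.88 over all genes.

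**Figure D5:**
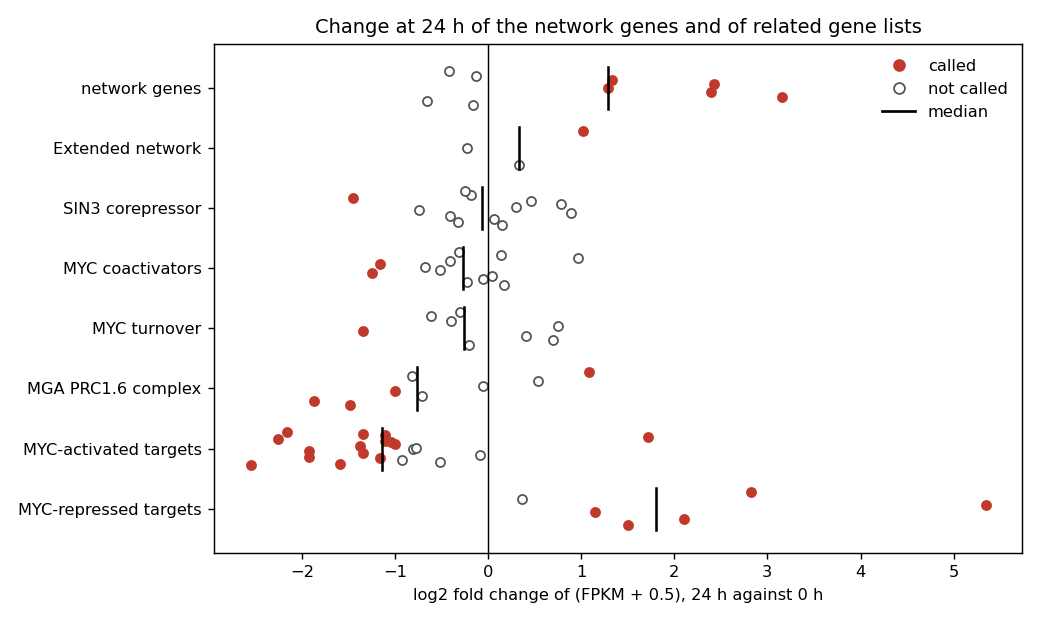
Log2 fold change of FPKM + 0.5 at 24 h against 0 h (horizontal axis) of the network genes and of lists of related genes (rows); each point is a gene past the filter, filled red where called and open where not, and the vertical strokes are medians. The medians are 1.29 for the network genes, -1.14 for the MYC-activated and 1.81 for the MYC-repressed targets.

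The genes whose course over the 12 libraries was most like that of MXI1 and of MYC were found by Pearson's r of log2(FPKM + 0.5) among 10269 genes with a mean of at least 5 FPKM. For MXI1 they were P4HA1 (r = 0.996), INSIG2 (0.995), BNIP3 (0.995), C4orf3 (0.993) and STC2 (0.992), which all had their highest mean at 24 h. P4HA1, a collagen prolyl hydroxylase gene, went from 16.8 ± 1.30 FPKM at 0 h and 22.1 ± 1.21 at 2 h to 222 ± 39.5 at 24 h. For MYC they were UPF2 (r = 0.922), TRIM16 (0.918), VAPB (0.900), TMEM43 (0.896) and TJAP1 (0.871). These had their lowest mean at 2 h, as MYC did, for instance VAPB with 32.5 ± 3.53, 29.1 ± 2.45, 25.8 ± 2.73 and 31.7 ± 2.95 FPKM at 0, 1, 2 and 24 h. The 12 points share libraries and time points, and no test was made of these correlations.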

How the data were processed

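Per the paper, the authors aligned strand-specific poly(A) reads to hg19 (GRCh37), assembled transcripts with Cufflinks, merged them with Ensembl and estimated abundance, and the deposited values are FPKM per transcript and library. CASAVA 1.8.2 and Cufflinks are named in the submitters' processing notes. The authors' edgeR, Cuffdiff and MATS tests were not repeated, since read counts were not analysed here.

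From the deposited FPKM, transcripts of class code = or j were summed per gene name and per start-site group, without rescaling, and kept where above 0.5 in at least 3 of 12 libraries. Groups came from the labels of oxygen and time. Changes against 0 h were tested with limma 3.58.1 in R 4.3.3 (lmFit and eBayes with trend, all 12 libraries) on log2(FPKM + 0.5), two-sided, with Benjamini-Hochberg adjustment over all features past the filter (16680 genes). The log2 scale uses a pseudocount of 0.5. Single values were compared by exact permutation tests. Same-numbered libraries of 0 h and 2 h had correlated deviations from their group means (r = 0.246, 0.129 and 0.362), so the numbers were taken to pair them, from the values and not from the labels. Those of 0 h and 1 h correlated similarly (r = 0.298, 0.0954 and 0.34). Transcript types, coding lengths and starts came from GENCODE release 44 lifted to GRCh37. The fits were tested on simulated data. Summaries and plots were made in Python 3.11.15 (matplotlib 3.10.9, scipy 1.17.1, pandas 2.3.3, numpy 2.4.6).

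The members, lists, tests and alternatives were chosen with earlier results of these data known. All 9 members are named. Other lists give at most 4 called genes each, those of largest change, and likeness gives the first 5 genes for MYC and MXI1. LDHA, the last of the 5 MYC-repressed genes called, the MLX targets and the hypoxia and marker genes were named after their values were seen. Scaling, pseudocount, filter, class codes, locus sums, replicate block and left-out libraries were varied.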

Additional observations from a re-analysis of the deposited data

How the results depend on the processing

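The 5 member calls at 24 h became 4 with sums per assembled locus, 4 in TPM over all transcripts (MXI1, MXD1 and MXD4 higher, MAX lower), 4 to 5 with 1 library left out and 7 (2 of them lower) with an adjusted p under 0.05 alone, and stayed 5 in the other settings run. TPM over all transcripts, in which the abundant short transcripts set the scale, turned early log2 changes negative: at 1 h MNT (-0.48), MGA (-0.28), MXD1 (-0.14), MXD3 (-0.35) and MXI1 (-0.41), and at 2 h MGA (-0.71), MXD3 (-0.64), MXD4 (-0.46), MNT (-0.24) and MXI1 (-0.54). None of these early changes was called. With that scaling 5.23% of the called genes were higher at 24 h, against 48.0% as deposited. MXD4 at 1 h became 0.026 with exact matches only.

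Leaving out 1 library turned the sign of several small changes, none called: at 1 h the ranges were -0.15 to 0.028 for MAX, -0.17 to 0.013 for MLX, -0.10 to 0.19 for MNT, -0.019 to 0.49 for MXD3 and -0.48 to 0.24 for MXD4, at 2 h -0.10 to 0.62 for MXD4 and at 24 h -0.41 to 0.14 for MGA.

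An adjusted p under 0.05 alone passed 1 member at 2 h in place of 0, beside 0.312% of all genes. At 24 h it passed 18 of the 28 start-site groups of members in place of 8, beside 13193 of all 38233 groups. With 1 library left out and the fold threshold kept, 7 to 10 member groups were called, beside 3864 to 4925 of all groups. In start-site use 8 member groups passed in the main fit, beside 3073 of all 31006 groups. With a pseudocount of 0.1 there were 4 (1960 of 31006), and with a filter of 1 FPKM 4 (2223 of 21874). With only the 6 libraries of the contrast 3 passed (1203 of 31006), and with 1 library left out 4 to 8 (1666 to 2719 of 31006). The log2 difference in the ratio of MYC to its competitors ranged from -3.04 to -2.65 with 1 library left out and was -1.99 without MXI1. The count of members whose noncoding shares did not overlap was 2 when transcripts had to pass 0.5 FPKM in 3 libraries, and 4 to 5 with 1 library left out. No shares over all genes are given for these counts.

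In their deviations, same-numbered libraries of 0 h correlated similarly with those of 2 h (0.129 to 0.362) and of 1 h (0.0954 to 0.34). With those of 24 h the values ran from -0.000785 to 0.242, so pairing was less clear there. In 26 of 36 cases a library correlated best with its own number. With the replicate number as a block, 3106 genes and 5 members were called at 24 h (3048 and 5 without), 9 start-site groups in place of 8 (1 of MNT was added) and 8 in use, and no member at 1 h or 2 h. With the block and an adjusted p under 0.05 alone, a combination chosen after seeing the data, 2 members passed at 2 h in place of 1. The block changed no other call refitted with it. A sign-flip test of the 3 same-numbered ratios of MYC to its competitors gave p = 0.25, the smallest possible (exact permutation, two-sided), for the same log2 difference of -2.84.

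Without counts the sampling error of low values, such as MXD1 near 1 FPKM, is unknown. Short and partial models of one gene share reads, so their division by Cufflinks is an estimate.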

Other observations

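At 24 h the libraries of replicate 1 and replicate 3 were the extremes for all 9 members. Over all genes these were also the least alike libraries of any time point (r = 0.965). How many of all genes had this order was not counted, so it is not a trait of the network. Replicate 1 was lowest and replicate 3 highest for MYC, MXI1, MNT and MGA, and the reverse held for MAX, MXD1, MXD3, MXD4 and MLX. The highest library was 2.32 times the lowest for MGA, 2.17 times for MNT and 1.14 times for MLX. Transcripts under 300 bases held 64.9% of the summed FPKM in replicate 1, 77.3% in replicate 2 and 87.7% in replicate 3. Whether these shares bear on the members' values was not tested.

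Other values concern minor starts of the members. The MXI1 group led by ENST00000369612 had 14.8, 0.629 and 1.15 FPKM at 24 h, where replicate 1 stood far above the others, against 0.314, 0.278 and 0.808 at 0 h, with overlap, and did not pass the test (log2 change 1.70 ± 0.75 (SE), adjusted p = 0.103). The MAX group led by the nonsense-mediated decay form ENST00000553928 had 1.93 ± 0.956 FPKM at 0 h and 0.485 ± 0.433 at 24 h, without overlap, and passed an adjusted p under 0.05 only (log2 change -1.33 ± 0.41 (SE), adjusted p = 0.028). The 2 leading MGA groups, ENST00000545763 and ENST00000570161, overlapped between 0 h and 24 h.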
